A study of Mus musculus with 16 samples.

Results

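Immediate early genes are genes that neurons switch on within minutes of synaptic activity, through factors that are already present and need no new protein. Calcium entry and the ERK kinase cascade act on CREB, on serum response factor and on MEF2 factors bound near these genes, and the products are further transcription factors (the *Fos*, *Jun*, *Egr* and *Nr4a* families, *Npas4*) or proteins that act at the synapse (*Arc*, *Homer1*, *Nptx2*). MEF2C, the factor mutated here, takes part in this activity-dependent transcription in hippocampal neurons. Several members, such as *Per1* and *Sgk1*, also respond to glucocorticoids, and others, such as *Dusp1* and *Gadd45b*, to cell stress.

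The list held 38 such genes, chosen by function and by no threshold on these arrays, but with earlier results of these data known. Of these, 36 had at least 1 probe among the 17871 genes of the array, and no probe was matched to *Fosl2* or *Dusp5*. *Npas4* stands in the array's annotation as Nxf, *Jund* as Jund1, *Klf10* as Tieg1 and *Sgk1* as Sgk. Each gene was read by its probe of highest mean signal. A filter kept probes with a detection p under 0.05 (signal above the negative control beads) on at least 4 of the 16 arrays, and 27 members passed it.

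The RNA came from the hippocampus of mice on a C57BL/6J background, 4 in each group with 1 Illumina MouseRef-8 v2 array per mouse. The groups were wild-type (WT) mice at postnatal day 1 (P1), *Mef2c*-het mice at P1, WT mice at P30 and *Mef2c*-het mice at P30. *Mef2c*-het mice, called KO in the labels, carry in all cells 1 copy of a conventional *Mef2c* allele that lacks exon 2, and the WT mice were littermates. No stimulation or treatment is given, so the values are those of untreated mice, and how the mice were handled before dissection is not given in the sources used here.

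Signals are given as log2 of the quantile-normalized intensity. A signal near 7 on this scale is the background of the arrays, since no background was subtracted in the main setting, and a fold change of a dim gene is therefore understated. Between 12638 and 14150 probes were detected per array. Within each age the arrays formed a larger and a smaller cluster, and the 5 arrays of the smaller clusters (WT replicate 8 and *Mef2c*-het replicate 8 at P1, WT replicates 6 and 7 and *Mef2c*-het replicate 7 at P30) had the higher background. *Xist* and Y-linked probes read all 8 P30 arrays and 3 of the 8 P1 arrays (WT 8, *Mef2c*-het 2 and *Mef2c*-het 8) as male, so that sex, which the labels do not give, is partly confounded with age. Probes of *Mef2c* lay lower in *Mef2c*-het mice at P30 by 0.29 and 0.25 on the log2 scale, neither past the threshold (limma, unadjusted p = 0.0778 and 0.167), and at P1 the differences were 0.07 and -0.01 (limma, unadjusted p = 0.667 and 0.975). At P30 *Mef2c*-het replicate 7 read 8.95 on the first of these probes, within the range of the WT arrays, and 9.92 on the second, above all WT arrays, while *Mef2c*-het replicate 5 read 9.76 on the second, among them. A probe outside exon 2 would also read the deleted transcript, and the position of these probes is not given in the table.

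The promoters of the members were read from RefSeq windows of GRCm38.p6 that run from 250 bases before a transcript's start to 50 bases after it, and 31 of the 38 members had at least 1 window, 42 windows in all. No window was listed for *Arc*, *Egr1*, *Egr3*, *Ier2*, *Klf10*, *Nptx2* or *Trib1*. TGACG, the core of the cAMP response element (CRE) that CREB binds, was found on either strand in 26 of the 42 member windows and in 20.8% of all 32851 windows. The full CRE TGACGTCA, each copy of which also holds that core on both strands, was in 3 member windows (*Btg2*, *Dusp1* and *Plk2*) and in 1.79% of all windows. The CArG box, the element of serum response factor, was in 5 member windows (4 of *Egr2*, of which several overlap and hold the same box, and 1 of *Dusp5*) and in 1.63% of all, or in 2 of 31 members (6.45%) against 1.81% of all genes with a window, and the MEF2 site was in 6 (*Atf3*, *Inhba*, *Jun*, *Klf2*, *Nr4a2* and *Per1*) and in 3.19% of all. The AP-1 site TGACTCA was in 0 member windows and in 5.2% of all, and TATAAA was in 9 and in 13.6%. A match describes the letters of a window and is neither a bound site nor a cause of a level.

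The stretches below end 1 base before the transcript start and are printed 5′ to 3′ on the gene's strand. *Fos* (chr12:85473750-85473889, plus strand) and *Egr4* (chr6:85513590-85513779, minus strand), both among the rising members below, are shown for their CRE cores, which are in capitals on whichever strand they lie.
Fos: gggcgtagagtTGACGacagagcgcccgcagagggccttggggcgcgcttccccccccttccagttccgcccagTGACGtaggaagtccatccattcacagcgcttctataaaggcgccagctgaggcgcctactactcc
Egr4: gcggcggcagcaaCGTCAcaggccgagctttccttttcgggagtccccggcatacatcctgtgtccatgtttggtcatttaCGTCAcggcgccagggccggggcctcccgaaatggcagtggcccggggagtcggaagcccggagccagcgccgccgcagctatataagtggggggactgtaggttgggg

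*Egr2* is shown for the CArG box in 2 of its windows (chr10:67537446-67537565 and chr10:67537749-67537868, both plus strand), with the box in capitals. The letters of the box differ between these starts.
Egr2 upstream start: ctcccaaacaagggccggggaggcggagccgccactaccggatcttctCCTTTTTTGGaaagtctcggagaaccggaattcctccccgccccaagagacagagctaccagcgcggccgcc
Egr2 downstream start: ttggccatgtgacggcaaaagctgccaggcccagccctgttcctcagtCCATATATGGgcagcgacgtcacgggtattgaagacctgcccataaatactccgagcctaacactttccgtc

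*Jun* (chr4:95052223-95052282, minus strand), *Klf2* (chr8:72318922-72319061, plus strand), *Inhba* (chr13:16011731-16011850, plus strand) and *Nr4a2* (chr2:57124004-57124183, minus strand) are shown for the MEF2 site, in capitals, since the mutated gene encodes a MEF2 factor. Their values between genotypes are given further below.
Jun: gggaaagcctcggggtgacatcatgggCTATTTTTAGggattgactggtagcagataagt
Klf2: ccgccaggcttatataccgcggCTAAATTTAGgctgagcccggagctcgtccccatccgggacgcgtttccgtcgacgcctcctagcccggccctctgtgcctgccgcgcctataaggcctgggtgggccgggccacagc
Inhba: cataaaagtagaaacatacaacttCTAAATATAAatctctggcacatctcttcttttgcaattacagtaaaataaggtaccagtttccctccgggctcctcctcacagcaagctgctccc
Nr4a2: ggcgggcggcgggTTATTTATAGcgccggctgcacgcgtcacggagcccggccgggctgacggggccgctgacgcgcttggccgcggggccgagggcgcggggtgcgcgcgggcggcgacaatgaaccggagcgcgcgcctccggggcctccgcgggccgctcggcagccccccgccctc

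The first question was how these genes changed between the newborn and the juvenile hippocampus. In WT mice 17 of the 27 tested members were higher at P30 than at P1 and 1 was lower (limma, adjusted p under 0.05). Much of the array changed over this time, with 59.7% of all 14777 tested probes called, 28% higher and 31.7% lower. Of the members 9 of 27 had a log2 fold change above 1, against 6.65% of all probes. Their median was 0.61, against -0.03, and ranged from 0.27 with no filter on dim probes to 0.93 with the background corrected. The bases differ, since members were read by the brightest probe of each gene and the 14777 tested probes cover 10803 genes, some by several probes. In *Mef2c*-het mice 18 of 27 were higher and 0 lower, with 58.3% of probes called and 26.9% higher, and 10 members were above 1, against 6.26%. *Fosb* and *Npas4* passed the filter through their P30 arrays alone and so had to be higher there. Without them, 15 of 25 members were higher in WT, 8 of them with a log2 fold change above 1, and 16 of 25 in *Mef2c*-het mice, 9 of them above 1. As a sum of all cells, a bulk sample cannot tell fewer cells of a type from less RNA per cell.

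*Arc*, which encodes a protein of dendrites that promotes removal of AMPA receptors from synapses, rose most. On the WT P1 arrays (replicates 1, 4, 5 and 8) its signal was 7.62, 7.68, 7.53 and 7.69, and on the *Mef2c*-het P1 arrays (1, 2, 4 and 8) it was 7.63, 7.54, 7.69 and 7.69. On the WT P30 arrays (2, 3, 6 and 7) it was 10.86, 11.42, 11.24 and 11.28, and on the *Mef2c*-het P30 arrays (3, 5, 6 and 7) it was 10.96, 11.19, 11.12 and 10.85. All P30 arrays lay more than 3 log2 units above all P1 arrays. The log2 fold change was 3.57 ± 0.10 (SE, n = 4 against 4) in WT, an 11.9-fold rise (limma, adjusted p = 6.35e-14), and 3.39 ± 0.10 in *Mef2c*-het mice (limma, adjusted p = 1.24e-13). With the background corrected the WT value was 4.88.

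Of the synaptic effectors beside *Arc*, *Nptx2*, a secreted pentraxin that clusters AMPA receptors, rose from 9.05, 8.72, 8.77 and 9.34 on the WT P1 arrays to 10.69, 10.65, 10.82 and 10.57 at P30. On the *Mef2c*-het arrays it rose from 9.25, 8.92, 9.16 and 9.64 to 10.48, 10.68, 10.43 and 10.73. The ages did not overlap in either genotype, and the log2 fold changes were 1.71 ± 0.15 and 1.34 ± 0.15 (SE, n = 4 against 4). *Homer1*, a scaffold of the postsynaptic density, was read by probes of several transcripts. Its brightest probe, annotated to transcript variant d, rose by 0.66 ± 0.08 in WT and 0.44 ± 0.08 in *Mef2c*-het mice, and a probe of variant L was higher by 0.23 in WT and read 0.05 in *Mef2c*-het mice, where it was not called. The probe of variant S, the short form known to be induced by activity, was detected on 0 of 16 arrays. *Rheb*, a small GTPase that activates mTORC1 and has one of the brightest signals of the list (12.33 to 12.83), was not called (0.03 in WT and 0.09 in *Mef2c*-het mice).

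**Figure D1:**
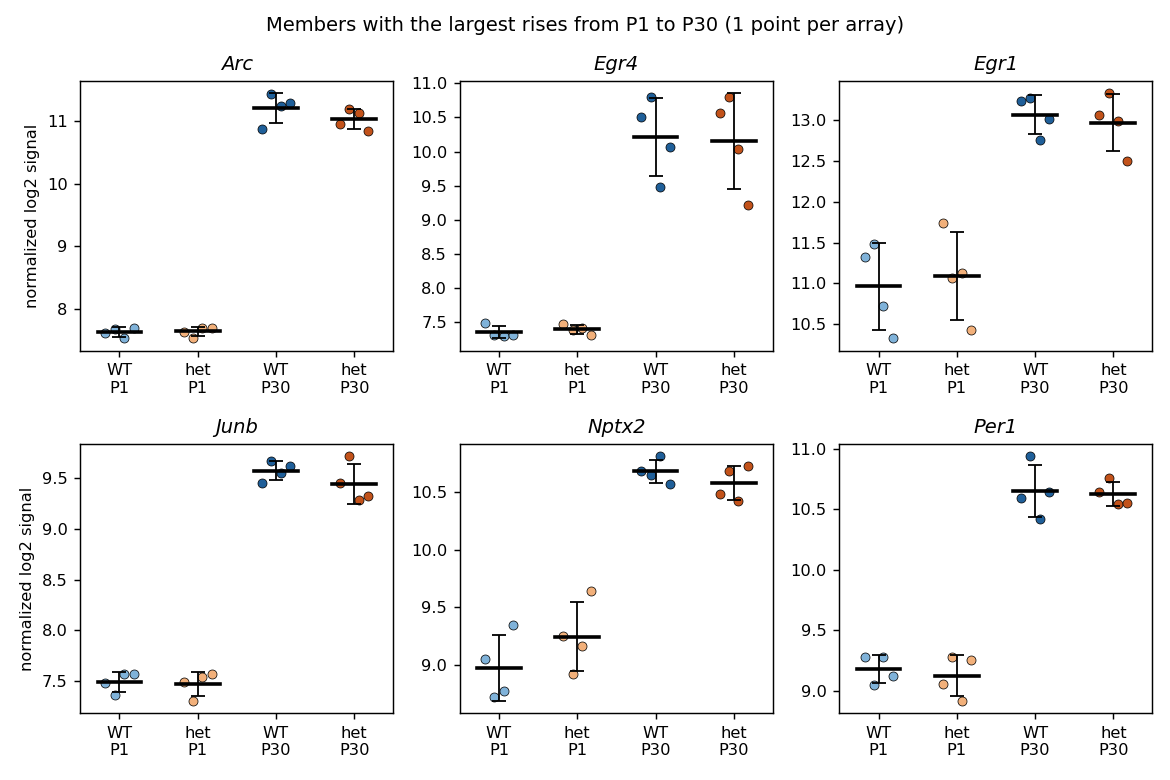
Normalized log2 signal (vertical axis, not starting at 0 and scaled per gene) of *Arc*, *Egr4*, *Egr1*, *Junb*, *Nptx2* and *Per1* on each of the 16 arrays, by genotype and age, with the group mean and SD. In all 6 genes every P30 array lies above every P1 array, and the P30 arrays of *Egr4* are spread from 9.22 to 10.80.

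The EGR zinc finger factors did not behave alike. *Egr1* was among the brightest members, at 11.33, 11.48, 10.73 and 10.33 on the WT P1 arrays and 13.23, 13.27, 12.76 and 13.01 at P30, and at 11.74, 11.07, 11.13 and 10.43 and then 13.06, 13.33, 12.98 and 12.50 in *Mef2c*-het mice. *Egr4* went from near the background, 7.49, 7.31, 7.30 and 7.32 in WT and 7.47, 7.39, 7.41 and 7.31 in *Mef2c*-het mice, to 10.51, 10.79, 9.48 and 10.06 and to 10.56, 10.80, 10.04 and 9.22. Neither gene overlapped between ages. The log2 fold changes were 2.10 ± 0.27 and 1.87 ± 0.27 for *Egr1*, and 2.86 ± 0.28 and 2.76 ± 0.28 for *Egr4* (SE, n = 4 against 4, WT and then *Mef2c*-het), the latter 4.65 in WT with the background corrected. *Egr2* rose by 0.81 ± 0.20 and 0.73 ± 0.20, with P30 arrays between 7.60 and 8.86. *Egr3* read 0.09 and -0.00 and was not called, at signals of 7.22 to 7.56.

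Of the AP-1 family, whose Fos and Jun proteins pair to bind DNA, 4 of 5 tested members rose in both genotypes. Over all probes 28% were higher in WT and 26.9% in *Mef2c*-het mice. *Fosb*, counted here, passed the filter through its P30 arrays alone and so had to be higher. *Junb* read 7.48, 7.36, 7.57 and 7.57 on the WT P1 arrays and 9.45, 9.67, 9.55 and 9.61 at P30, and 7.49, 7.31, 7.54 and 7.57 and then 9.45, 9.71, 9.28 and 9.32 in *Mef2c*-het mice. The ages lay apart with little spread within them, and *Junb* rose by 2.07 ± 0.09 and 1.96 ± 0.09 (SE, n = 4 against 4, 3.45 in WT with the background corrected). *Jun* rose by 0.96 ± 0.10 and 1.04 ± 0.10, to P30 signals of 9.75 to 10.18. *Fos*, the classical marker of recent neuronal activity, rose by 1.32 ± 0.29 (adjusted p = 0.000986) and 1.30 ± 0.29 (adjusted p = 0.00113, both limma). Its SE was the largest of the list, and its arrays are given below. *Fosb* was detected on 0 of the 8 P1 arrays and on all 8 P30 arrays, so that its rise has only a lower bound. It was at least 2.08-fold in WT and at least 1.86-fold in *Mef2c*-het mice, taking for each P1 array the higher of its own reading and the dimmest detected probe. *Jund*, which is known to be expressed without stimulation, was not called (0.03 and 0.04). *Atf3*, a stress-induced partner of Jun, was not tested.

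Among the other transcription and clock factors, *Per1*, a repressor of the circadian clock, read 9.27, 9.05, 9.28 and 9.12 on the WT P1 arrays and 10.59, 10.94, 10.42 and 10.64 at P30, and 9.05, 9.27, 8.91 and 9.25 and then 10.64, 10.75, 10.54 and 10.55 in *Mef2c*-het mice. It rose by 1.47 ± 0.11 and 1.50 ± 0.11 (SE, n = 4 against 4), and a second probe by 1.29 and 1.12. *Npas4*, a neuron-specific factor that responds to calcium entry alone, had probes that disagreed. Its brighter probe was detected on all 8 P30 arrays at 7.40 to 7.92, and on 0 WT and 1 *Mef2c*-het array at P1. By that probe the rise in WT was at least 1.40-fold, and the measured log2 fold change in *Mef2c*-het mice was 0.43. The dimmer probe read -0.07 and -0.05. It was detected on 3 of 4 WT arrays at P1 and 1 of 4 at P30, and on 3 of 4 *Mef2c*-het arrays at each age. The lower bound therefore holds for the brighter probe alone and not for the gene. *Klf2*, a Krüppel-like factor best known from endothelium, was called in WT (0.27, adjusted p = 0.0442) and not in *Mef2c*-het mice (0.03). The WT call was lost in 13 of 26 alternative settings, among them leaving out WT P1 replicate 1, 4 or 8, *Mef2c*-het P1 replicate 4 or 8, or WT P30 replicate 2, 3 or 7. Without WT P30 replicate 3 it was 0.18 (adjusted p = 0.165, limma). *Klf4* was not called, and *Klf10*, *Btg2*, *Ier2* and *Ier5* were not tested.

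Of the phosphatases, kinases and stress regulators, *Sgk1*, a kinase that acts on ion channels and transporters, rose by 1.44 ± 0.12 in WT and 1.32 ± 0.12 in *Mef2c*-het mice, to P30 signals of 12.13 to 12.82. *Gadd45b*, linked to DNA demethylation at activity-induced promoters, rose by 1.00 ± 0.08 and 0.73 ± 0.08 (2.23 in WT with the background corrected). *Dusp6*, a phosphatase that inactivates ERK, rose by 0.60 ± 0.08 and 0.39 ± 0.08. Its brightest probe lay at 11.38 to 12.36, a second probe rose by 0.34 and 0.20, and a more variable one read 0.10 and 0.33 with an SE of 0.35 and was not called. *Gadd45g* was called in *Mef2c*-het mice alone by its brightest probe (0.43, adjusted p = 0.00584, against 0.28, adjusted p = 0.0505, in WT), and by its second probe in both genotypes (0.41 and 0.51). *Plk2* (0.31, adjusted p = 0.0474), a kinase of synaptic homeostasis, and *Rgs2* (0.32, adjusted p = 0.00222), a regulator of G protein signals, were called in *Mef2c*-het mice, with 0.26 and 0.14 in WT, where neither was called. The *Plk2* call was lost in 13 of 26 alternative settings, among them leaving out any *Mef2c*-het P1 array, *Mef2c*-het P30 replicate 3, 5 or 6, WT P1 replicate 1 or WT P30 replicate 3 or 6, with adjusted p up to 0.137 among these (limma). None of these 3 differences between the genotypes passed a test of its own, as given below. *Dusp1* was not called (-0.11 and -0.15), and *Trib1* was not tested.

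*Nr4a2*, an orphan nuclear receptor that also specifies dopamine neurons, was the member called lower in WT. Its signal was 8.65, 9.25, 8.98 and 8.44 on the WT P1 arrays and 8.54, 8.31, 8.14 and 8.67 at P30, and in *Mef2c*-het mice it was 8.40, 8.81, 8.70 and 8.31 and then 8.39, 8.54, 8.47 and 8.55. The ages overlapped in both genotypes. It fell by 0.41 in WT (adjusted p = 0.0325) and read -0.07 in *Mef2c*-het mice, where it was not called. Leaving out WT P1 replicate 4, the highest array, gave -0.27 (adjusted p = 0.13, limma), and WT P1 replicate 5 or WT P30 replicate 3 or 6 also ended the call. With sex as a covariate it was -0.25 (adjusted p = 0.315). *Nr4a3* was not called and *Nr4a1* was not tested. Of the secreted signals, *Inhba*, the subunit of activin A, rose by 0.41 ± 0.11 in WT (adjusted p = 0.00513) and read 0.01 in *Mef2c*-het mice. The WT rise was 0.21 (adjusted p = 0.171, limma) with sex as a covariate. *Cyr61* and *Ptgs2* (cyclooxygenase 2) were not tested.

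**Figure D2:**
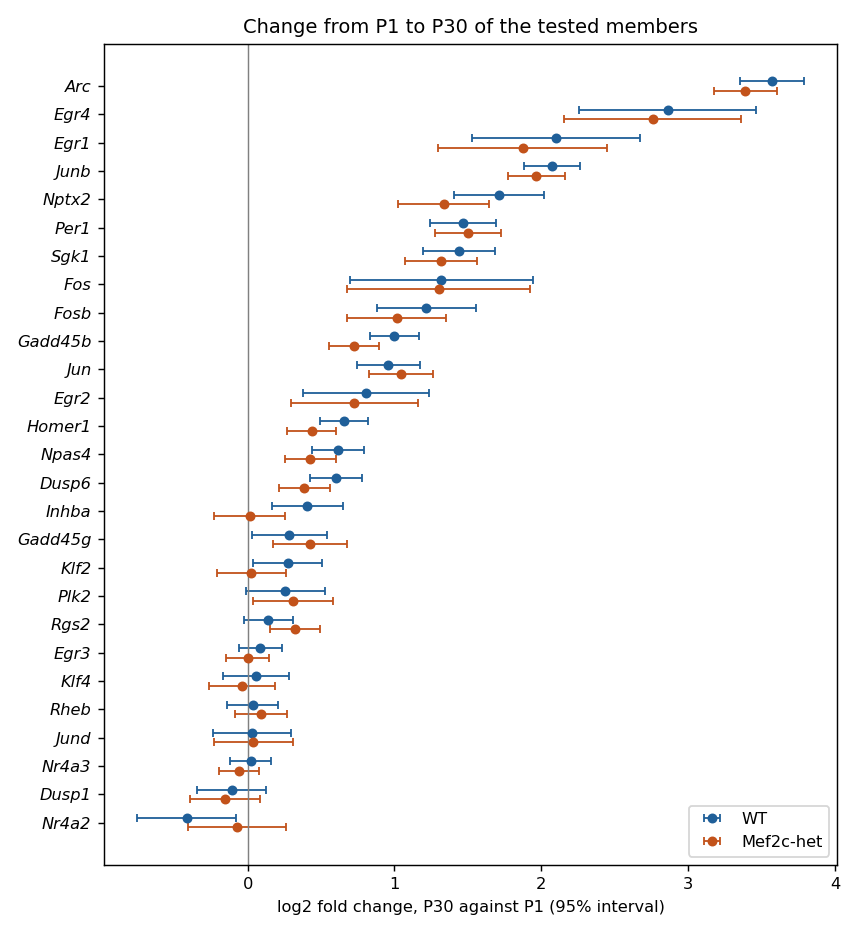
Log2 fold change from P1 to P30 (horizontal axis) of the 27 tested members, ordered by the WT value, in WT (blue) and *Mef2c*-het mice (orange), with 95% intervals from limma. *Arc*, at 3.57 and 3.39, stands farthest to the right, and the intervals of *Fos*, *Egr1* and *Egr4* are the widest.

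The 9 members that were not tested (*Nr4a1*, *Ier2*, *Ier5*, *Btg2*, *Klf10*, *Atf3*, *Cyr61*, *Trib1* and *Ptgs2*) were each detected on at most 3 of the 16 arrays, 5 of them on none. Their signals lay between 6.89 and 7.42 throughout, so that these arrays give no order for them. Between ages, 16 of 27 members did not overlap in WT and 18 of 27 in *Mef2c*-het mice, against 53.1% and 52.5% of all probes. In WT the share was near that of all probes. Both counts include *Fosb* and *Npas4*, which passed the filter through their P30 arrays alone. Groups that do not overlap always give an exact permutation p = 0.0286, the smallest that 4 against 4 arrays allow, so that test adds nothing here. With the background corrected (normexp with an offset of 16), the WT log2 fold changes of dim members were larger. They were 1.92 for *Fos*, 1.86 for *Egr2* and 0.93 for *Inhba*. For *Fosb* and *Npas4* this setting gave 2.88 and 1.79. Their brightest probes were detected on 0 WT P1 arrays, so these 2 values depend on the correction and are not measured sizes. The dimmer *Npas4* probe did not rise, as given above. On the arrays of the larger cluster of each age alone, 19 members were higher and 1 lower in WT, and 18 and 0 in *Mef2c*-het mice. With sex as a covariate as well, 15 and 17 were higher. Each of these counts of higher members includes *Fosb* and *Npas4*. The number of all probes called also moved with the setting, from 5818 to 8905 in WT, and the share in these settings is not given here.

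The surrounding pathway was read from lists of genes that are not members. Of 32 tested genes among 40 other activity-induced genes, 20 were higher and 4 lower in WT at P30, and 22 and 5 in *Mef2c*-het mice, with a WT median of 0.50. Over all probes 28% were higher and 31.7% lower in WT, and 26.9% and 31.4% in *Mef2c*-het mice. The largest WT rises were those of *Nrn1* (2.71), *Scg2* (2.24) and *Cebpb* (2.04), and the largest falls those of *Midn* (-1.59), *Mcl1* (-0.80) and *Nfil3* (-0.76). The list of transcriptional regulators of immediate early genes holds *Mef2c* itself. Of its 18 tested genes 5 were higher and 1 lower in WT, a share of higher genes near that of all probes. The largest changes were those of *Hdac4* (0.96), *Crtc1* (0.89), a coactivator of CREB, and *Srf* (0.68), and with *Elk3*, a cofactor of SRF, at -0.89. Of 17 tested genes of the ERK cascade, 8 were higher and 7 lower, against the same 28% and 31.7% of all probes. *Rasgrf1*, a calcium-dependent activator of Ras, was higher by 5.51 and *Spred1* by 0.83, while *Nras* (-1.11) and *Rps6ka1* (-0.75) were lower.

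Markers of cell types moved over the same time. Of tested markers, 5 of 6 of mature excitatory neurons, 8 of 8 of oligodendrocytes, 7 of 8 of astrocytes, 9 of 10 of microglia and 5 of 6 of GABAergic interneurons were higher in WT at P30, against 28% of all probes, and 7 of 7 of immature neurons and 7 of 7 of proliferating cells were lower, against 31.7%. The summed intensity of 7 choroid plexus markers, a tissue next to the hippocampus, ran from 7261 to 34118 on the WT P1 arrays, 2880 to 27613 in *Mef2c*-het mice at P1, 3159 to 26862 in WT at P30 and 4350 to 7414 in *Mef2c*-het mice at P30. The summed normalized intensity of the 6 excitatory neuron markers was 6291 to 8764 on the WT P1 arrays and 36040 to 40159 at P30, and in *Mef2c*-het mice 6829 to 8102 and 33572 to 38953. Of 8 tested heat shock and handling stress genes 5 were higher in WT and 6 in *Mef2c*-het mice, against 28% and 26.9% of all probes. The steroid-induced *Fkbp5* stood at 0.68 and *Hspa1a* at 1.11 in WT. The part of cell composition and of handling in the rise of the members was not tested.

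Some of these genes varied widely between mice of 1 group. *Fos* read 9.48, 10.09, 8.90 and 9.12 on the WT P30 arrays and 9.41, 9.93, 8.98 and 8.59 on the *Mef2c*-het P30 arrays, after 8.09, 8.34, 8.25 and 7.64 in WT and 8.55, 7.76, 7.86 and 7.54 in *Mef2c*-het mice at P1. The ages did not overlap within a genotype, and WT replicate 3 and *Mef2c*-het replicate 5 were the highest P30 arrays. At P30 the pooled SD within groups was 0.64 for *Egr4*, 0.55 for *Fos*, 0.45 for *Egr2*, 0.34 for *Fosb* and 0.29 for *Egr1*, against a median of 0.12 over all tested probes. At P1 *Egr1* (0.54) and *Fos* (0.38) varied most, while *Egr4* (0.08), *Egr2* (0.08) and *Fosb* (0.08) were near the background and hardly varied. *Arc* (0.20) and *Junb* (0.15) varied less at P30, and *Homer1* (0.08), *Nr4a3* (0.08), *Rheb* (0.08), *Egr3* (0.09) and *Rgs2* (0.11) less than the median probe.

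The same mice were high in several of these genes. WT replicates 2 and 3 and *Mef2c*-het replicates 3 and 5 were the 4 highest of the 8 P30 arrays for *Fos*, and also for *Fosb* (8.50, 8.70, 8.45 and 8.61, against 7.81 to 8.27 on the others), *Egr1*, *Egr4* and *Klf4*. These were 4 of the 26 other tested members, and 1.64% of all tested probes had the same 4 highest arrays. At P1, 0 of 26 members shared the 4 highest arrays of *Fos*, against 1.17% of probes. *Arc*, *Junb* and *Jun* had other arrays among their highest. All 4 high arrays belong to the larger array cluster, and the 3 arrays of the smaller cluster (WT 6 and 7 and *Mef2c*-het 7) and *Mef2c*-het 6 of the larger cluster were the other 4 in these genes. At P1 the 3 arrays read as male held the 3 lowest *Fos* signals (7.54, 7.64 and 7.76). The part of the array cluster and of sex in this spread was not tested.

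**Figure D3:**
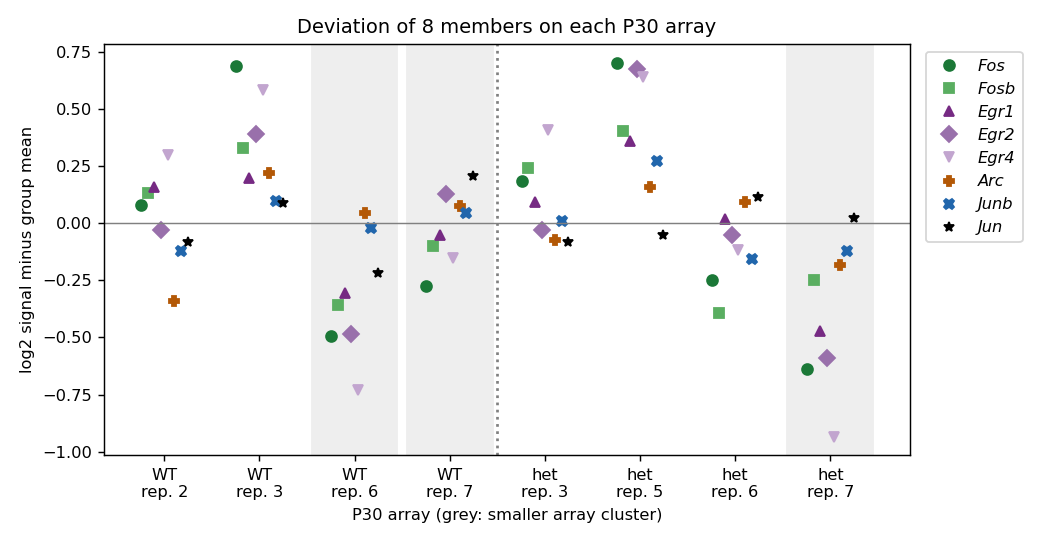
Log2 signal minus the mean of the array's own group (vertical axis) for 8 members on each of the 8 P30 arrays, WT to the left of the dotted line and *Mef2c*-het to the right, with the 3 arrays of the smaller cluster shaded. *Fos*, *Fosb*, *Egr1* and *Egr4* lie above 0 together on WT replicates 2 and 3 and *Mef2c*-het replicates 3 and 5, which *Jun* and *Junb* do not.

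The next question was whether these genes differed between *Mef2c*-het and WT mice. At P30, 0 of 27 members were called (limma, adjusted p = 0.994 at the lowest), as was 0.00677% of all tested probes. At an unadjusted p under 0.05 there were 3 of 27, against 2.84% of all probes. The members leaned to lower values in *Mef2c*-het mice, 21 of 27 with a negative log2 fold change against 54.4% of all probes, with a median of -0.06 against -0.01. Other lists leaned the same way, with negative values in 22 of 32 other activity-induced genes and 14 of 18 regulators of immediate early genes. The regulators count *Mef2c* itself, which was negative. So were 6 of 6 excitatory neuron markers (median -0.10) and 8 of 8 endothelial markers (median -0.08). The part of these lists in the members' lean was not tested. Microglia markers leaned the other way, with 8 of 10 positive. Because members that vary together between mice are not independent, this count is a description. No member had groups that did not overlap, against 1.89% of all probes.

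*Gadd45b* had the smallest p. Its P30 signal was 8.20, 8.53, 8.30 and 8.46 in WT and 8.30, 8.10, 8.20 and 7.98 in *Mef2c*-het mice. The groups overlapped, with *Mef2c*-het replicate 3 as high as WT replicate 6. The log2 fold change was -0.23 with a 95% interval of -0.40 to -0.06 (limma, unadjusted p = 0.0114, adjusted p = 0.994). Of 8 heat shock and handling stress genes, 5 were negative and 3 positive, and 2 had an unadjusted p under 0.05, *Hspa1a* (-0.23) and *Pdk4* (-0.17, both limma, adjusted p = 0.994). Their part in the result was not tested. *Inhba* read 7.92, 8.04, 8.01 and 8.19 in WT and 7.67, 7.84, 7.57 and 7.98 in *Mef2c*-het mice. All but 1 *Mef2c*-het array lay below the WT arrays, and the log2 fold change was -0.28 (limma, unadjusted p = 0.0255, adjusted p = 0.994, exact permutation p = 0.0571).

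*Rheb* leaned the other way, at 12.66, 12.56, 12.63 and 12.48 in WT and 12.82, 12.78, 12.83 and 12.65 in *Mef2c*-het mice. All but 1 *Mef2c*-het array lay above the WT arrays, and the log2 fold change was 0.19 (limma, unadjusted p = 0.0378, adjusted p = 0.994, exact permutation p = 0.0571). *Npas4*, the fourth by p, read 7.92, 7.86, 7.78 and 7.64 in WT and 7.63, 7.85, 7.65 and 7.40 in *Mef2c*-het mice. Its groups overlapped at -0.17 (limma, unadjusted p = 0.0602, adjusted p = 0.994), and its dimmer probe read 0.05.

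The intervals give, on the scale without background subtraction, how large a genotype effect these arrays could have missed. They are not limits for dim members, whose differences are understated on it. Under the other settings that kept every array or the larger clusters, the P30 difference ran from -0.34 to -0.05 for *Arc* and -0.38 to -0.14 for *Fos*. It ran from -0.59 to -0.23 for *Inhba* and from 0.16 to 0.23 for *Rheb*. For *Arc* at P30 the difference was -0.17 with a 95% interval of -0.39 to 0.04, for *Junb* -0.13 (-0.32 to 0.06) and for *Nptx2* -0.10 (-0.41 to 0.21). For *Fos* the interval ran from -0.79 to 0.45, for *Egr1* from -0.67 to 0.47 and for *Egr4* from -0.66 to 0.54, so that a fall within these bounds was not detectable against the spread between mice. Of the members whose promoter window holds a MEF2 site, *Inhba* is given above, *Klf2* differed by -0.21 (-0.44 to 0.03), *Jun* by -0.02 (-0.24 to 0.19), *Per1* by -0.03 (-0.25 to 0.20) and *Nr4a2* by 0.07 (-0.26 to 0.41), and *Atf3* was not tested. A window without the letters, such as that of *Gadd45b*, says nothing of more distant elements.

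**Figure D4:**
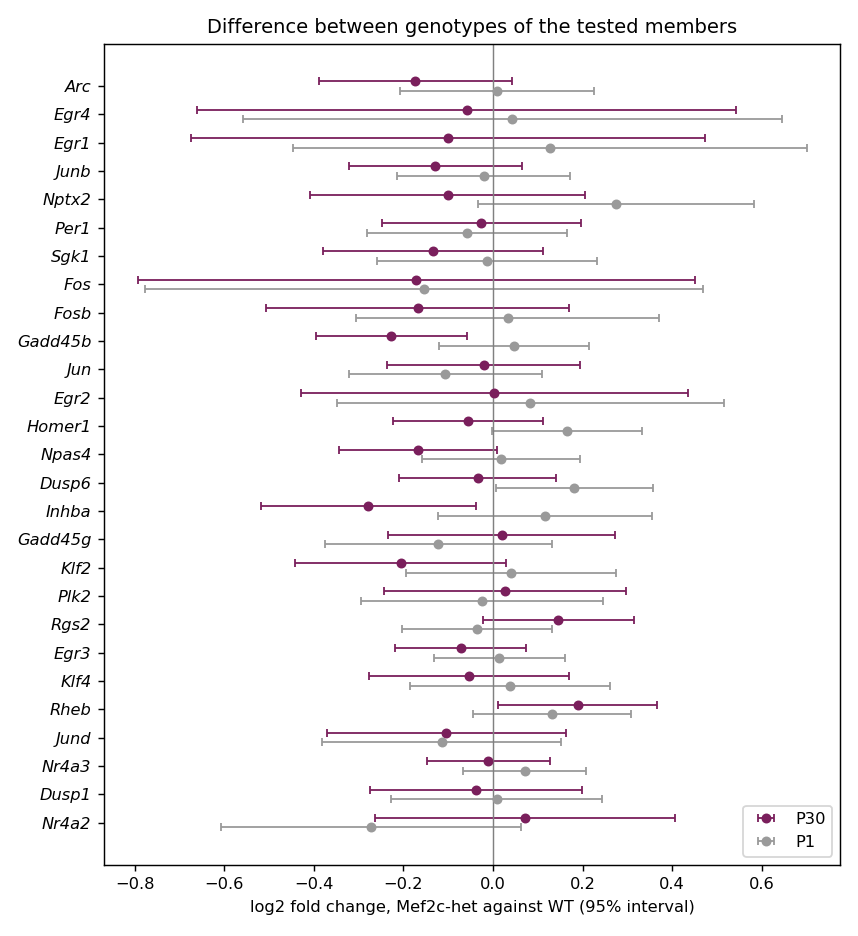
Log2 fold change of *Mef2c*-het against WT (horizontal axis) for the 27 tested members, in the order of their WT change with age, at P30 (purple) and P1 (grey), with 95% intervals from limma before any adjustment. At P30 the intervals of *Gadd45b*, *Inhba* and *Rheb* leave out 0, and at P1 that of *Dusp6*.

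At P1, 0 of 27 members were called (limma, adjusted p = 1), as were 0.0135% of all probes, and 1 had an unadjusted p under 0.05, against 2.28%. This was *Dusp6*, at 11.45, 11.38, 11.60 and 11.56 in WT and 11.82, 11.61, 11.62 and 11.68 in *Mef2c*-het mice. Its groups did not overlap (exact permutation p = 0.0286), as was the case for 1.42% of all probes, but *Mef2c*-het replicate 2 lay close to WT replicate 5. The log2 fold change was 0.18 (limma, unadjusted p = 0.043, adjusted p = 1), and the other *Dusp6* probes read -0.02 and 0.06. Next by p were *Homer1*, *Nptx2* and *Nr4a2*. *Homer1* read 10.65, 10.46, 10.69 and 10.68 in WT and 10.71, 10.61, 10.89 and 10.93 in *Mef2c*-het mice, a difference of 0.17 (limma, unadjusted p = 0.0515). The differences of *Nptx2* (0.27) and *Nr4a2* (-0.27) had overlapping groups, on the arrays listed above.

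Whether the genotypes differed more at one age than at the other was read from the interaction of age and genotype, which passed the threshold in 0 of 27 members (limma, adjusted p = 0.998 at the lowest) and in 0 of all probes. At an unadjusted p under 0.05 there were 2 of 27, against 2.96% of all probes, and 19 of 27 were negative, against 52.8%. Negative too were 6 of 6 excitatory neuron markers (median -0.12), 7 of 8 endothelial markers (median -0.11) and 13 of 18 regulators of immediate early genes. The regulators again count *Mef2c* itself. Other lists leaned the other way. Positive were 9 of 10 microglia markers (median 0.28), 4 of 4 blood markers (median 0.30) and 5 of 7 markers each of immature neurons and of proliferating cells (medians 0.11 and 0.02). The part of these lists in the members' lean was not tested. At P1, *Inhba* read 7.65, 7.37, 7.61 and 7.90 in WT and 7.65, 7.71, 7.66 and 7.98 in *Mef2c*-het mice, and *Gadd45b* read 7.35, 7.34, 7.44 and 7.36 in WT and 7.49, 7.33, 7.46 and 7.40 in *Mef2c*-het mice. The genotypes overlapped at P1 in both genes. For the interaction *Inhba* had -0.39 (unadjusted p = 0.0251) and *Gadd45b* -0.27 (unadjusted p = 0.0268, both limma, adjusted p = 0.998), followed by *Homer1* (-0.22) and *Dusp6* (-0.22). *Inhba* was also a member called with age in WT alone. The others called with age in 1 genotype alone were *Nr4a2*, *Klf2*, *Gadd45g*, *Plk2* and *Rgs2*. Their interaction was, in this order, 0.34, -0.25, 0.14, 0.05 and 0.18, with unadjusted p between 0.125 and 0.78 (limma). In the 3 pathway lists no gene was called between genotypes at either age. At an unadjusted p under 0.05 at P30 there was 1 of 32 other activity-induced genes, 1 of 18 regulators and 0 of 17 ERK cascade genes. Over all probes the share was 2.84%. The genes were *Tac1* (0.26), a neuropeptide gene, and *Hdac4* (-0.28, limma, unadjusted p = 0.00372), a deacetylase that binds and represses MEF2 factors. Counts this small give no result about the lists.

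**Figure D5:**
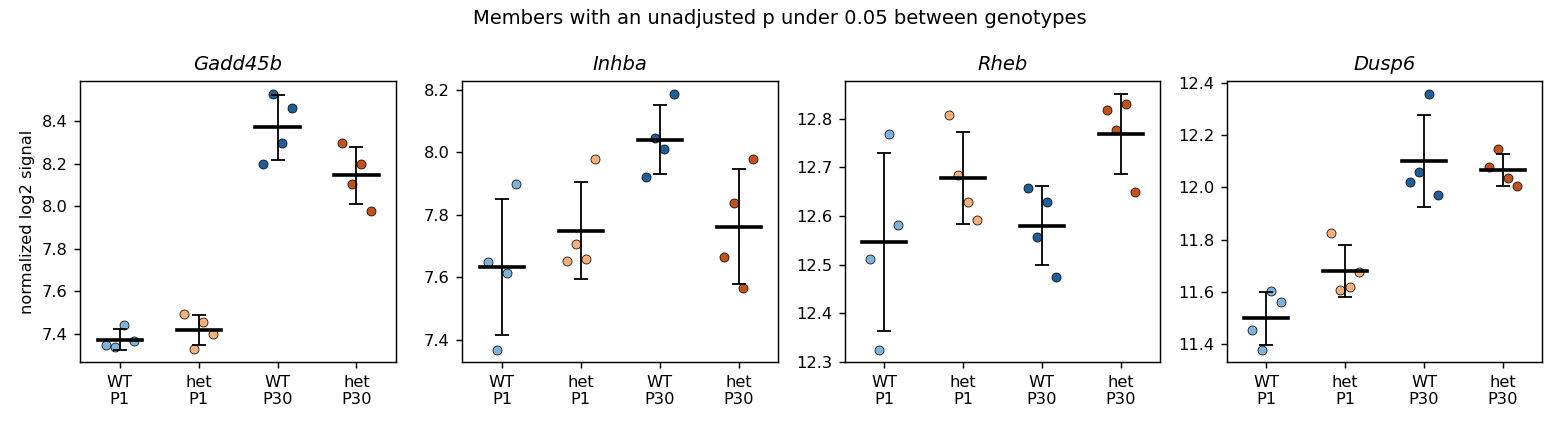
Normalized log2 signal (vertical axis, not starting at 0 and scaled per gene) of *Gadd45b*, *Inhba*, *Rheb* and *Dusp6* on each of the 16 arrays, with the group mean and SD. The genotypes overlap at P30 in all 4 genes, and *Dusp6* is the gene in which they lie apart at P1.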

How the data were processed

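Total RNA from 16 hippocampi was hybridised by the authors to Illumina MouseRef-8 v2 arrays. The deposited table holds, per probe and array, the intensity without normalization, the detection p-value, the bead count and the bead standard error. Whether background was subtracted is not stated, and the lowest deposited intensity was 92.8.

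Intensities were quantile-normalized on the log2 scale and fitted with limma 3.58.1 (R 4.3.3) over all 16 arrays, with 5 contrasts and Benjamini-Hochberg adjustment over 14777 probes that passed the filter. Fits were tested on simulated data. Single values were compared with two-sided exact permutation tests (scipy 1.17.1), for which 4 against 4 arrays allow no p below 0.0286. Probes were named through the array's annotation (25376 of 25697). The labels give replicate numbers but no sex, litter or chip, so p-values measure the spread between these samples. Members and gene lists were chosen with earlier results of these data known. All 38 members are named. Values on every array are given for up to 6 called members of largest WT change with age in each direction, for up to 4 of smallest p per genotype contrast and for those whose genotypes did not overlap, and *Fos* was added after its values were seen. Up to 3 called pathway genes of largest change are named in each direction. Some pathway genes that this rule names are not reported here.

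The labels do not say whether equal replicate numbers pair mice, and the main fit did not pair them. The correlation of deviations ranged from -0.522 to 0.82 over 6 shared numbers. It was highest for P1 replicate 8 (0.82) and P30 replicate 7 (0.697), whose arrays all lie in the smaller clusters. It was lowest for P30 replicate 6, whose arrays lie in different clusters. These correlations therefore cannot tell pairing from the array cluster. Alternatives were background correction (normexp), other scalings, filters and probe rules, blocks, covariates and leaving out each array. Leaving out the smaller array cluster was added after the data were seen.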

Additional observations from a re-analysis of the deposited data

Results flagged for a closer look

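In 4 of 108 groups of 4 arrays, 1 array stood apart from the rest by Dixon's ratio of its gap to the whole range, past Dixon's 95% critical value, where chance gives about 5.4. *Egr4* on WT P1 replicate 1 read 7.49 against 7.30 to 7.32 (ratio 0.867). *Homer1* read 10.46 on WT P1 replicate 4 against 10.65 to 10.69 (ratio 0.835), and 11.07 on *Mef2c*-het P30 replicate 3 against 11.26 to 11.29 (ratio 0.863). *Inhba* on *Mef2c*-het P1 replicate 8 read 7.98 against 7.65 to 7.71 (ratio 0.839).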

How the results depend on the processing

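The number of members called with age was 18 in WT, 16 to 20 under the other settings and 16 to 19 with 1 array left out. In *Mef2c*-het mice it was 18, and 17 to 19. All probes called under the other settings were 5818 to 8905 in WT and 6633 to 8939 in *Mef2c*-het mice. Of the WT calls 15 of 18 held under every alternative, and *Nr4a2*, *Klf2* and *Inhba* lost theirs under some. In *Mef2c*-het mice 16 of 18 held, and *Plk2* and *Gadd45g* lost theirs under some. Calls were also gained, by 2 members in each genotype. In WT *Gadd45g* was called under 10 of 26 alternatives and *Plk2* under 4, and in *Mef2c*-het mice *Dusp1* (lower) and *Rheb* under 1 each. No call reversed. Between genotypes 0 members were called under every alternative. With the replicate number as a block 0 members were called, and 9 at P30, 5 at P1 and 8 for the interaction had an unadjusted p under 0.05 (limma). The share of all probes at that level was not computed under this block, so these counts have no background to be read against. No such block could be made between ages, whose groups share no replicate numbers within a genotype. A chip block was not run, since chips are not named. Dim members, near the background, are limited by signal.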
